A study of Bos taurus with 24 samples.

Results

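TNF is the cytokine at the head of a short signalling chain, and the 8 genes described here run along it: the ligand TNF, its receptors TNFRSF1A and TNFRSF1B, the adaptors TRAF1 and TRAF2, and the survival effectors BIRC2, BIRC3 and CFLAR. Their rows were found by gene symbol, and the set was chosen with earlier results of these data known. Of the 8 symbols, 7 had a row among the 27550 rows with a gene symbol in the deposited tables, each on a single row, and BIRC2 had none.

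RNA-Seq was run on skin fibroblasts (the collagen-making cells of connective tissue) grown from dermal biopsies of 4 Holstein (dairy) and 4 Angus (beef) heifers of like age. Every culture was sampled without LPS (0 h, the control) and at 2 h and 8 h after 100 ng/ml LPS (lipopolysaccharide, the outer membrane component of Gram-negative bacteria) was added, which gave 24 samples in 6 groups of 4. The comparisons ask how the cells respond to LPS at each hour and whether the breeds differ before and during the response. Both breeds were handled alike: primary cells, frozen at the third passage and revived together, had no genetic modification, and wells were run in duplicate and combined into 1 RNA sample. A sample is thus 1 animal at 1 hour, the 3 hours of an animal carry its number in the labels, and the 0 h samples are shared by both LPS comparisons.

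TNF is released by many cells on contact with bacterial products. TNFRSF1A is found on most cell types and can signal either inflammation or death, whereas TNFRSF1B is more restricted, is inducible and binds TRAF2 directly. At the receptor, TRAF2 brings in the ubiquitin ligases BIRC2 and BIRC3 (also known as cIAP1 and cIAP2), whose ubiquitin chains lead to NF-κB activation. NF-κB in turn drives transcription of BIRC3, TRAF1, CFLAR (also known as c-FLIP, which blocks CASP8 activation) and TNF itself, so that the pathway feeds its own brakes. LPS reaches NF-κB through TLR4 without passing through the TNF receptors.

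Total counts were 51014538 to 104406293 per library, and levels are given as TMM-scaled CPM, that is, counts relative to the size of the library. The smallest level taken as measurable, 3 counts, was 0.029 to 0.059 CPM. Fibroblast markers summed to 38139 to 124865 CPM, with 10 of 10 at 1 CPM or more in every group mean. Leukocyte markers, a list that matters for TNF, summed to 3.89 to 7.98 CPM over 10 genes, of which only CD68 and FCER1G had a median above 1 CPM over the 24 libraries. The pan-leukocyte gene PTPRC lay between 0.274 and 0.709 CPM, and the T cell gene CD3E reached at most 0.104 CPM. Keratinocyte markers summed to at most 0.91 CPM in Angus and 14.7 CPM in Holstein cultures, endothelial markers to at most 5.22 CPM, melanocyte markers to 12.2 CPM and adipocyte markers, with 3 of 4 rows found, to 25.6 CPM. In bulk RNA, fewer cells of a type and less RNA per cell cannot be told apart.

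Reads of COL1A1 had been counted differently in 4 libraries, namely those of Holstein animals 2 and 4 and of Angus animal 4 before LPS and that of Angus animal 3 at 2 h. There each COL1A1 count stood for 66.2 to 67.1 covered bases, and in the remaining 20 libraries for 111.8 to 119. Of the genes described here, those with enough counts showed no such split. BIRC3 had 87.6 to 89.6 covered bases per count in the 4 libraries and 87.8 to 90 in the remaining 20, and TNFRSF1A had 68.3 to 69.6 and 67.66 to 69.97. Results that change without these libraries are given both ways.

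The genes differed in when and how much they responded. BIRC3 rose at both hours in both breeds, TNF and TNFRSF1B rose at 2 h and fell again by 8 h, TRAF2 rose at 2 h by a smaller amount, CFLAR rose at 8 h, TNFRSF1A fell slightly at 8 h, and TRAF1 did not pass the test at either hour. A gene is said to have risen, fallen or changed only where the false discovery rate (FDR) of edgeR's likelihood-ratio test over all rows was under 0.05, or, for TNF where it was too low for that test, where the adjusted P of an exact permutation test was. With the breeds combined, 3 of the 6 genes tested were higher at 2 h and none was lower, where 22% of all rows tested changed in either direction. At 8 h, 2 were higher and 1 was lower, with 12.8% of all rows changed. From 2 h to 8 h, 1 was higher and 2 were lower, with 23.8% of all rows changed. A move in the same direction in all 8 animals, given below as 8 of 8, was seen in 36.1% of rows at 2 h, 27.8% at 8 h and 34.8% from 2 h to 8 h.

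**Figure D1:**
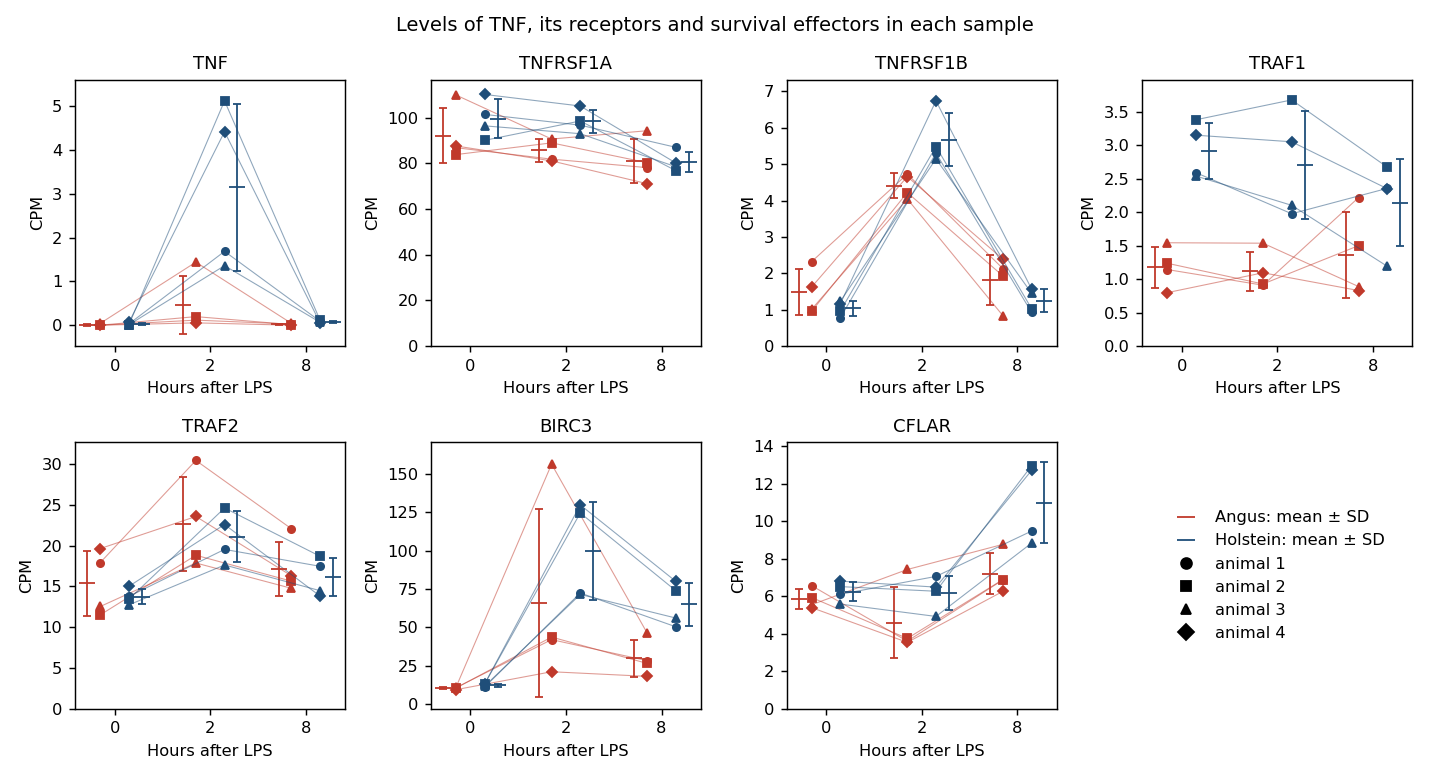
Expression in CPM (vertical axis, linear, scaled per gene) at 0, 2 and 8 h after LPS (horizontal axis, hours evenly spaced) for the 7 genes with a row. Symbols are animals 1 to 4 of each breed, joined across hours, with the group mean ± SD (n = 4) beside them. TNF, TNFRSF1B and BIRC3 peaked at 2 h, and CFLAR was highest at 8 h in Holstein cultures.

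The ligand TNF (chromosome 23, 27533901 to 27536674 on UMD v3.1, minus strand) was almost silent before LPS. At 0 h, Angus animals 1 to 4 had 0, 0, 4 and 0 counts and Holstein animals 1 to 4 had 2, 1, 1 and 3. At 2 h, the Holstein animals had 121, 334, 104 and 311 counts (1.68, 5.12, 1.36 and 4.41 CPM), and the Angus animals 7, 15, 117 and 5 counts (0.116, 0.196, 1.44 and 0.054 CPM). At 8 h, they had 9, 9, 4 and 5 counts (Holstein) and 2, 1, 4 and 0 counts (Angus). Every animal was higher at 2 h than at 0 h and at 8 h. Among Angus animals, 117 of the 144 counts at 2 h came from animal 3, the library with the other counting of COL1A1, and the remaining 3 animals were below every Holstein animal.

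Because of these low levels, TNF passed the CPM filter (1 CPM or more in at least 50% of the samples compared) in only 2 of the 12 comparisons. In Holstein at 2 h it did so through the 2 h samples alone. Between the breeds at 2 h, the Holstein samples alone were enough. Over all 8 animals, log2(CPM + 0.1) rose by a mean of 3.06 at 2 h (exact permutation test by sign flips, P = 0.00781, the smallest the design allows, adjusted P = 0.0391 over the 10 tests of this kind) and fell by 2.77 from 2 h to 8 h in 8 of 8 animals (adjusted P = 0.0391). At 8 h the mean difference from 0 h was 0.30, with 5 of 8 animals higher (adjusted exact P = 0.125). Leaving out any 1 animal gave an adjusted P of 0.0714 or more for both calls. The exact P was then 0.0156, the smallest that 7 animals allow, and all remaining animals moved in the same direction. Without the 4 libraries with other counting, which left 4 paired animals at 2 h, the rise was 2.54 (adjusted exact P = 0.3125). Its exact P of 0.125 was again the smallest possible. With so few animals, these runs cannot tell whether the calls rest on any 1 animal or on these libraries.

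Within Holstein, TNF was 6.77 higher at 2 h on the log2 scale of the fit (standard error 0.73), which is given as a description, since only the high group brought TNF past the filter. With no filter on low counts, edgeR gave 6.77 in Holstein (FDR = 1.29e-20) and 5.19 in Angus (FDR = 0.00525). Summed counts were 870 at 2 h and 7 at 0 h, a ratio of 119 (95% interval 57.6 to 297, counting error only). The Angus sums of 144 and 4 gave a ratio of 42.2 (16.1 to 157). At 8 h, the Holstein sum of 27 was 3.07 times that of 0 h (1.31 to 8.36, counting error only), but over animals the mean difference was 0.47 with 3 of 4 higher and animal 4 lower (exact permutation P = 0.25, adjusted P = 0.2778). Without animal 3, the Angus counts were 27 and 0, which made TNF at least 10.7-fold higher at 2 h than 3 counts over the group. The exact test of TNF within Angus (mean 1.68, 4 of 4 animals higher) had P = 0.125, the smallest possible with 4 animals. The leukocyte marker sums of Holstein libraries ran from 3.89 to 5.76 CPM at 0 h, 6.15 to 7.11 CPM at 2 h and 5.20 to 7.87 CPM at 8 h, so that 0 h and 2 h did not overlap. Those of Angus libraries ran from 4.90 to 6.85 CPM, 6.56 to 7.98 CPM and 7.36 to 7.71 CPM, so that 0 h and 8 h did not overlap. Their part in the LPS results was not tested.

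LOC100847561 (chromosome 23, 27535276 to 27541815, plus strand) overlaps TNF on the other strand, and the library kit did not mark the strand. At 2 h its row held 55, 137, 44 and 114 counts for the Holstein animals and 7, 6, 46 and 2 counts for the Angus animals, high in the same samples as TNF. At 0 h it had 0 to 3 counts. Reads of the pair cannot be told apart.

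TNFRSF1A (chromosome 5, 104402771 to 104415588), the receptor with the death domain, was present at 71.1 to 110 CPM in all 24 samples. Over both breeds it averaged 95.8 ± 10.4 CPM before LPS, 92.0 ± 8.21 CPM at 2 h and 80.8 ± 7.01 CPM at 8 h (SD, n = 8). The fold change at 2 h was 0.958 with a 95% interval of 0.85 to 1.08 (FDR = 0.728). At 8 h it fell in 8 of 8 animals, by 0.25 on the log2 scale (standard error 0.09, FDR = 0.0321), a change to 0.84 of the 0 h level. The samples of the hours still overlapped. Within breeds, the fall was 0.30 in Holstein (FDR = 0.0137, and 0.109 without the 4 libraries, against 5.97e-06 to 0.158 over the alternatives), while the Angus value was -0.19 (FDR = 0.636). The call at 8 h was narrow: with total-count scaling the combined value was -0.18 with FDR = 0.124, and without the 4 libraries it was -0.24 with FDR = 0.104. Leaving out any 1 Holstein animal also ended it (-0.25 to -0.21), and FDR over the 17 alternatives ran from 9.41e-06 to 0.138, with 10 calls.

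TNFRSF1B (chromosome 16, 42376244 to 42409768), the inducible receptor, behaved differently. At 0 h, the Angus animals had 2.32, 0.96, 1.01 and 1.63 CPM and the Holstein animals 0.78, 0.97, 1.23 and 1.17 CPM. At 2 h, the Angus animals reached 4.73, 4.22, 4.05 and 4.66 CPM and the Holstein animals 5.30, 5.49, 5.15 and 6.74 CPM, with no sample of 2 h as low as any of 0 h. At 8 h, all 8 animals were back between 0.84 and 2.39 CPM. The rise at 2 h was 3.98-fold with the breeds combined (log2 1.99, standard error 0.20, FDR = 1.88e-19), 2.98-fold in Angus and 5.44-fold in Holstein. From 2 h to 8 h it fell by 1.72 (log2, FDR = 2.01e-13), and at 8 h the difference from 0 h was 0.27 (FDR = 0.574). Such a lack of overlap between hours held for 7.33% of rows at 2 h against 0 h, 2.86% at 8 h against 0 h and 7.32% at 8 h against 2 h.

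TRAF2 (chromosome 11, 106295586 to 106311423), the adaptor that links the receptors to BIRC2 and BIRC3, averaged 14.6 ± 2.83 CPM before LPS, 21.9 ± 4.36 CPM at 2 h and 16.7 ± 2.72 CPM at 8 h (SD, n = 8). It rose in 8 of 8 animals at 2 h, by 1.496-fold (log2 0.58, standard error 0.14, FDR = 0.000363), and fell by 0.39 from 2 h to 8 h (FDR = 0.0159), again in 8 of 8. Angus animal 1 was the highest sample at 2 h with 30.5 CPM, and Holstein animal 3 the lowest with 17.6 CPM. Within breeds, the rise at 2 h was 0.61 in Holstein (FDR = 5.82e-05). The Angus value of 0.56 missed the threshold (FDR = 0.111), and passed it with the animal as a block (FDR = 7.37e-07) and without the 4 libraries (0.79, FDR = 0.0151), against an FDR of 7.37e-07 to 0.391 over the alternatives.

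TRAF1 (chromosome 8, 112194564 to 112214586), an adaptor that pairs with TRAF2 and is a known NF-κB target, did not pass the test for LPS at either hour, combined or within a breed. Its fold change with the breeds combined was 0.933 at 2 h (95% interval 0.577 to 1.51) and 0.853 at 8 h (0.546 to 1.33). These intervals leave room for changes in either direction. At 2 h, 2 of 8 animals were higher than at 0 h, and at 8 h, 3 of 8 were. In Holstein at 8 h all 4 animals were lower, and the value of -0.44 (FDR = 0.306) became -0.48 with the animal as a block (FDR = 0.0287, against 0.0287 to 0.818 over the alternatives).

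BIRC3 (chromosome 15, 6639729 to 6654248), a ubiquitin ligase that protects cells from TNF-driven death, had the largest response with the breeds combined among the genes that passed the filter. At 0 h, all 8 animals lay between 9.42 and 13.2 CPM. At 2 h, the Holstein animals had 72.4, 124, 71.4 and 130 CPM, and the Angus animals 42.0, 43.7, 156 and 21.1 CPM. At 8 h, the Holstein animals had 50.3, 73.8, 56.0 and 79.9 CPM, and the Angus animals 28.3, 26.5, 46.3 and 18.1 CPM. No sample at 2 h or 8 h was as low as any at 0 h, and Angus animal 3 was the highest of all samples at 2 h while the other 3 Angus animals were the lowest.

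The rise was 7.28-fold at 2 h (log2 2.87, standard error 0.31, FDR = 8.06e-16) and 4.17-fold at 8 h (log2 2.06, standard error 0.25, FDR = 6.07e-13). Within breeds, it was 8.07-fold in Holstein and 6.33-fold in Angus at 2 h, and 5.31-fold and 2.86-fold at 8 h. All 8 animals were lower at 8 h than at 2 h, but the difference of -0.80 missed the threshold without pairing (FDR = 0.125). With the animal as a replicate block it was -0.69 and passed (FDR = 3.32e-06, against 3.32e-06 to 0.347 over the alternatives). Without Angus animal 3, the Angus rise at 2 h was 1.80 on the log2 scale in place of 2.66.

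BIRC2, the close relative of BIRC3, cannot be given a value. In the RefSeq gene order of the assembly ARS-UCD2.0, BIRC2 lies between TMEM123 and BIRC3. In the deposited tables the place next to BIRC3 is taken by a row without a symbol (chromosome 15, 6553056 to 6639728), which follows the row of LOC100300021, the gene ID that RefSeq gives to TMEM123. This row was singled out after its values were seen. It held 22.7 to 30.9 CPM at 0 h, 48.3 to 70.7 CPM at 2 h and 28.0 to 34.5 CPM at 8 h. It rose 2.13-fold at 2 h in 8 of 8 animals (log2 1.09, standard error 0.10, FDR = 4.18e-24) and 1.18-fold at 8 h (FDR = 0.0322). Which transcript these reads came from was not tested.

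**Figure D2:**
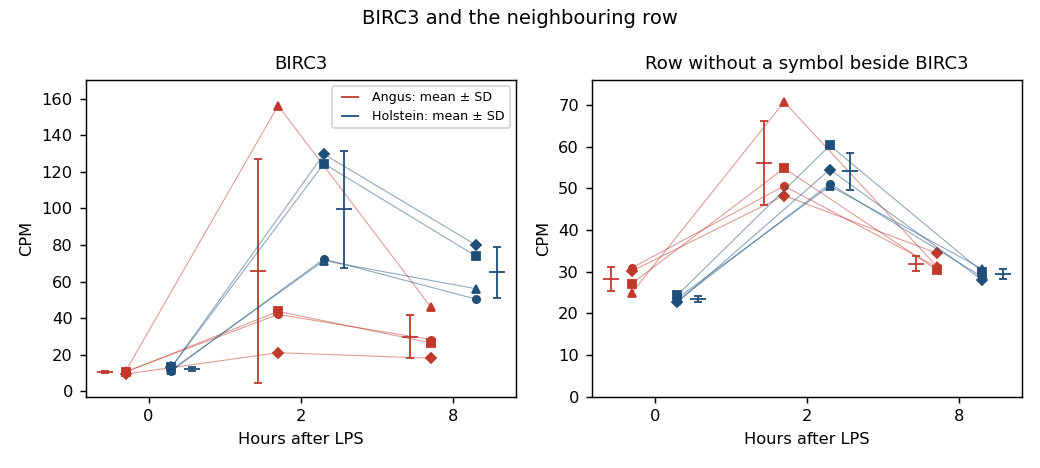
CPM of BIRC3 (left) and of the neighbouring row without a symbol (right) at 0, 2 and 8 h after LPS, hours evenly spaced. Points are animals joined across hours and bars are the mean ± SD (n = 4 per breed). BIRC3 at 8 h lay at 50.3 to 79.9 CPM in Holstein and 18.1 to 46.3 CPM in Angus cultures, whereas the neighbouring row overlapped between breeds at that hour.

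CFLAR (chromosome 2, 90139395 to 90172955), the inhibitor of CASP8, was late. Its levels at 0 h were 5.39 to 6.81 CPM over the 8 animals and at 2 h 3.54 to 7.43 CPM. At 8 h, the Holstein animals had 9.48, 13.0, 8.83 and 12.7 CPM and the Angus animals 6.87, 6.89, 8.77 and 6.26 CPM. All 8 animals were higher at 8 h than at 0 h, and the rise was 1.499-fold (log2 0.58, standard error 0.16, FDR = 0.00312). From 2 h to 8 h it rose by 0.76 (FDR = 0.00243). At 2 h the difference from 0 h was -0.17 (FDR = 0.587). In Angus at 2 h, CFLAR was lower in animals 1, 2 and 4 and higher in animal 3, and without animal 3 the Angus value was -0.71 (FDR = 0.00364, against 0.00316 to 0.923 over the alternatives).

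LOC100848161 lies inside CFLAR on the opposite strand (90144956 to 90159746), and reads of this pair cannot be told apart by strand either. In Holstein animal 1 at 2 h that row had 938 counts against 139 to 783 in the other samples, and the covered bases per CFLAR count were 301 there against 138 to 168 elsewhere. With both rows added together (an alternative chosen after seeing the data), the rise at 8 h was 0.57 (FDR = 0.00209), and the value from 2 h to 8 h was 0.58 (FDR = 0.0796).

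**Figure D3:**
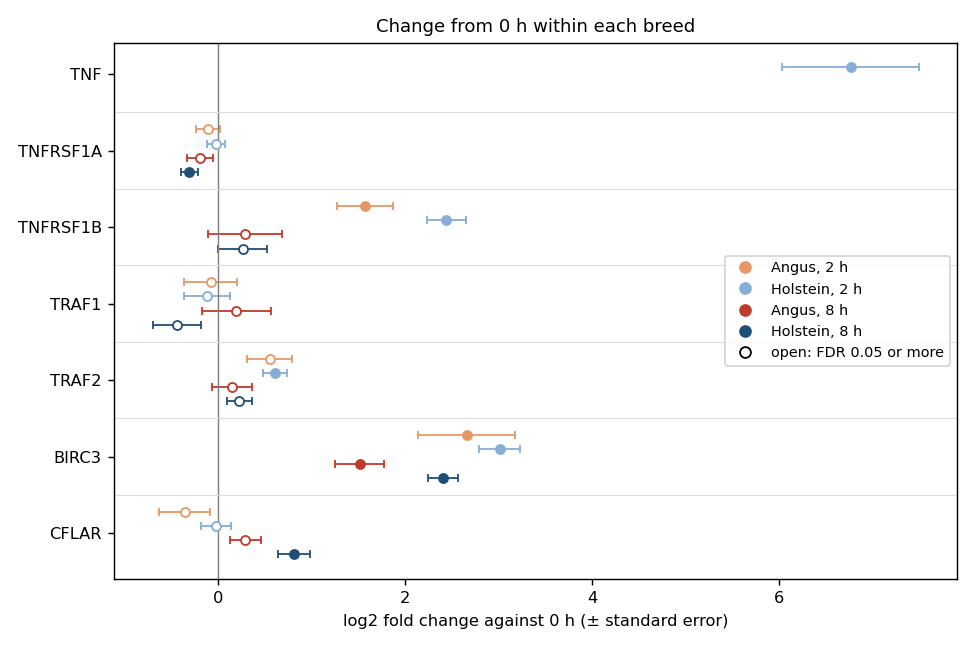
log2 fold change against 0 h within each breed (horizontal axis) for each gene, with the standard error of edgeR's fit as bars. Filled points had FDR under 0.05. BIRC3 is the only gene with 4 filled points. TNF has a point only for Holstein at 2 h, where its high 2 h samples alone brought it past the filter on low counts.

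Within each breed and leaving TNF aside, 3 of 6 genes tested changed in Holstein at 2 h, all upwards (TNFRSF1B, TRAF2 and BIRC3), with 17.2% of all rows changed. At 8 h, 3 of 6 changed in Holstein (BIRC3 and CFLAR up, TNFRSF1A down), with 14.7% of rows. In Angus, 2 of 6 changed at 2 h (TNFRSF1B and BIRC3), with 13.8% of rows, and 1 of 6 at 8 h (BIRC3), with 3.9% of rows. These counts do not show a breed difference by themselves, which only a direct comparison tests.

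Before LPS, 1 of the 6 genes tested differed between the breeds, where 13.8% of all rows did. TRAF1 was 2.47-fold higher in Holstein (log2 1.30, standard error 0.24, FDR = 1.17e-05). The Holstein animals had 2.59, 3.38, 2.54 and 3.15 CPM and the Angus animals 1.14, 1.24, 1.54 and 0.80 CPM, with no overlap. At 2 h the difference was 2.40-fold (log2 1.26, standard error 0.28, FDR = 0.000314), with 1.98 to 3.68 CPM in Holstein and 0.91 to 1.54 CPM in Angus. At 8 h it was 0.66 (standard error 0.38, FDR = 0.229) and the animals overlapped, Angus animal 1 having 2.22 CPM and Holstein animal 3 having 1.19 CPM. TRAF1 kept its call in all 15 alternatives at 0 h and in all 15 at 2 h, and without the 4 libraries its value at 0 h was 0.97 (FDR = 0.0272, the highest of the 15).

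The other genes did not differ past the threshold at 0 h. BIRC3 averaged 12.3 ± 1.03 CPM in Holstein and 10.4 ± 0.69 CPM in Angus (SD, n = 4). These samples did not overlap, as in 17.3% of all rows, but the fold of 1.18 had an interval of 0.992 to 1.41 (FDR = 0.211). TNF could not be separated at this depth, with 7 counts in Holstein and 4 in Angus.

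Leaving TNF aside, 1 of 6 genes tested differed between the breeds at 2 h (TRAF1), against 20.1% of rows. TNF passed the filter here, and its 4 Holstein samples, the higher group, were enough for that by themselves. Angus animal 3 was also at 1 CPM or more. The TNF difference, given as a description, was 2.79 on the log2 scale, or 6.91-fold (standard error 0.88, 95% interval 2.09 to 22.9, FDR = 0.0205, and 0.0299 with no filter on low counts). Angus animal 3, at 1.44 CPM, lay within the Holstein range of 1.36 to 5.12 CPM, and the other Angus animals lay at 0.054 to 0.196 CPM. Without that animal the difference was 4.68, likewise given as a description. Under edgeR's quasi-likelihood test with all animals, the difference was 2.77 (FDR = 0.0636). Over the 15 alternatives, FDR ran from 1.7e-09, in the fit without Angus animal 3, to 0.079. FDR was under 0.05 in 9, that fit among them, which is part of the description.

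The same animal set the results of BIRC3 and CFLAR at 2 h. With all animals, BIRC3 differed by 0.59 (FDR = 0.476) and CFLAR by 0.43 (FDR = 0.287), and neither was called. Without Angus animal 3, BIRC3 was 1.48 higher in Holstein (FDR = 0.000114, against 0.000114 to 0.752 over the alternatives) and CFLAR 0.77 higher (FDR = 0.000477, against 0.000477 to 0.532). In both genes this animal had the highest level of all 8 animals at 2 h. TNFRSF1B had no overlap at 2 h (5.15 to 6.74 CPM in Holstein, 4.05 to 4.73 CPM in Angus, 24% of rows having none), with a difference of 0.36 (FDR = 0.111).

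At 8 h, BIRC3 and CFLAR were higher in Holstein, 2 of 6 genes tested against 16.5% of rows, and neither overlapped between the breeds, as in 20.4% of rows. BIRC3 was 2.19-fold higher (log2 1.13, standard error 0.28, FDR = 0.00171), the Holstein mean being 65.0 ± 14.1 CPM and the Angus mean 29.8 ± 11.9 CPM (SD, n = 4). CFLAR was 1.53-fold higher (log2 0.61, standard error 0.19, FDR = 0.0125), with 10.99 ± 2.14 CPM in Holstein and 7.20 ± 1.09 CPM in Angus. BIRC3 was called in all 14 alternatives and CFLAR in 9, the CFLAR FDR reaching 0.0827. TNF counts at 8 h, 27 in Holstein and 7 in Angus, gave a ratio of 3.61 (95% interval 1.53 to 9.81, counting error only), and the animals did not overlap (exact permutation P = 0.0286, the smallest possible, adjusted P = 0.0714).

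**Figure D4:**
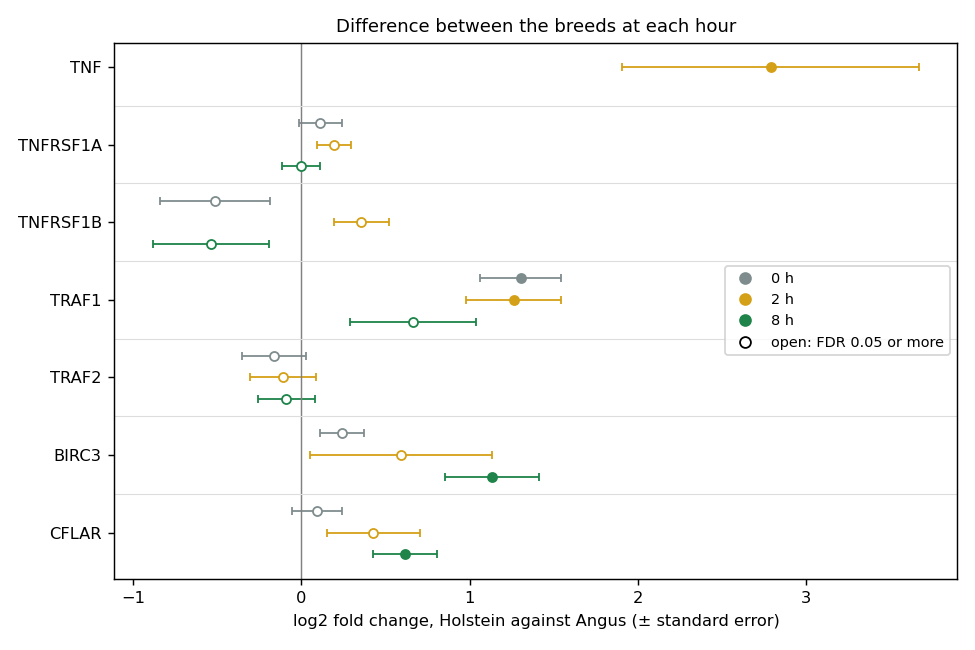
log2 fold change of Holstein against Angus at each hour (horizontal axis) with the standard error as bars, right of 0 being higher in Holstein. Filled points had FDR under 0.05: TRAF1 at 0 h and 2 h, TNF at 2 h, and BIRC3 and CFLAR at 8 h. TNF passed the filter on low counts only at 2 h, where its higher Holstein samples alone were enough, so its point is descriptive.

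Keratinocyte markers summed to 0.45 to 0.91 CPM over the Angus libraries and 0.79 to 14.7 CPM over the Holstein libraries. Over all libraries KRT5 reached 10.2 CPM and KRT14 2.77 CPM, while KRT1 was at 0 in every library. The leukocyte sums overlapped between breeds at each hour, with 6.15 to 7.11 CPM in Holstein and 6.56 to 7.98 CPM in Angus at 2 h. Melanocyte and fibroblast sums separated the breeds at 0 h and 8 h and overlapped at 2 h. Melanocyte markers summed to 10.25 to 11.4 CPM in Angus against 5.84 to 7.92 CPM in Holstein at 0 h, and to 9.34 to 12.2 CPM against 6.52 to 8.43 CPM at 8 h. Fibroblast markers, COL1A1 among them, summed to 53479 to 69263 CPM in Angus against 72861 to 124865 CPM in Holstein at 0 h, and to 38139 to 59210 CPM against 61844 to 79184 CPM at 8 h. Endothelial sums overlapped between breeds at 0 h only. Holstein libraries had the higher endothelial sums at 2 h (3.19 to 4.77, Angus 2.08 to 2.95 CPM). The same held at 8 h (3.54 to 5.22, Angus 2.63 to 3.33 CPM). Taken by hour, keratinocyte sums were apart at 8 h alone (0.80 to 14.7, Angus 0.45 to 0.77 CPM). Adipocyte sums overlapped at each hour. The part of these markers in the breed differences was not tested.

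Whether the breeds differed in the size of the response itself was tested by the interaction of breed and LPS, in which 0.437% of all rows were called at 2 h and 0.137% at 8 h. None of the 6 genes tested was called at either hour by edgeR's likelihood-ratio test, its quasi-likelihood test or DESeq2. At an unadjusted P under 0.05, each of these tools had 1 gene at 2 h (TNFRSF1B) and 2 at 8 h (BIRC3 and CFLAR). The share of all rows at that limit is not given here, so these counts do not show whether the members stand out. The TNFRSF1B response at 2 h was 0.88 larger in Holstein (standard error 0.35, FDR = 0.66), with changes of 1.98 to 2.62 in Holstein and 1.00 to 2.03 in Angus animals.

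For BIRC3 at 8 h, the interaction was 0.88 (standard error 0.32, FDR = 0.752). Holstein animals changed from 0 h by 2.17, 2.48, 2.25 and 2.59 and Angus animals by 1.40, 1.33, 2.06 and 0.93, with no overlap, as in 7.33% of rows. Once the animal entered as a replicate block, the interaction was 0.94 and passed (FDR = 0.00122), under the block with the quasi-likelihood test it was 0.93 and did not (FDR = 0.0899), and over the 17 alternatives FDR ran from 0.00122 to 1. Without Angus animal 3 it was 1.15 (FDR = 0.00467). The CFLAR interaction at 8 h was 0.51 (FDR = 1), with overlapping changes. For TNF at 2 h, Holstein animals changed by a mean of 4.44 ± 0.86 and Angus animals by 1.68 ± 1.23 (SD, n = 4, log2(CPM + 0.1)), without overlap, as in 10% of the rows tested (exact permutation P = 0.0286, the smallest possible, adjusted P = 0.0714).

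Under the study's own threshold, which adds a fold change of at least 2 and an average CPM above 1, fewer genes were counted. With the breeds combined, 2 of 6 passed at 2 h (TNFRSF1B and BIRC3, 2.82% of rows), 1 at 8 h (BIRC3, 1.42% of rows) and 1 from 2 h to 8 h (TNFRSF1B, 2.76% of rows). Leaving TNF aside, 2 of 6 passed in Holstein at 2 h (3.14% of rows) and 1 of 6 in Holstein at 8 h (2.51%), and in Angus 2 of 6 at 2 h (2.98%) and 1 of 6 at 8 h (0.863%). Between the breeds, 1 of 6 passed at 0 h (3.81% of rows), 1 of 6 at 2 h (4.45%) and 1 of 6 at 8 h (3.24%), and no interaction did (0.278% of rows at 2 h and 0.0982% at 8 h).

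**Figure D5:**
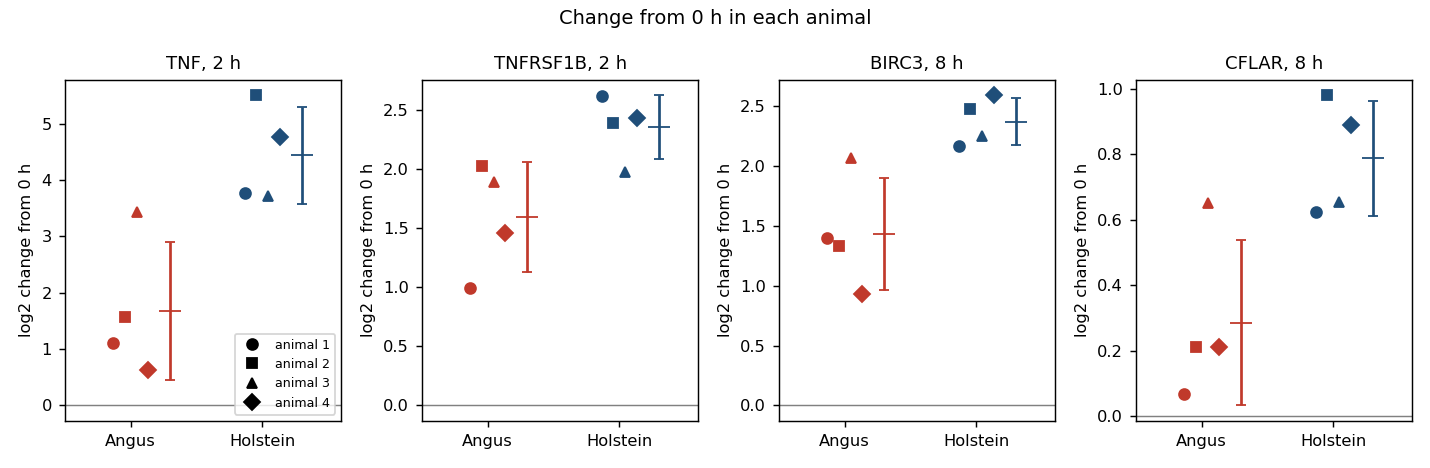
Change from 0 h in each animal, as the difference of log2(CPM + 0.1) (vertical axis), for TNF and TNFRSF1B at 2 h and BIRC3 and CFLAR at 8 h. Symbols are animals 1 to 4 and bars are the mean ± SD (n = 4 per breed). The breeds do not overlap for TNF and BIRC3, and Angus animal 3 is the highest Angus animal in TNF, BIRC3 and CFLAR.

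The order of the 6 group means of BIRC3 was Holstein 2 h, Angus 2 h, Holstein 8 h, Angus 8 h, Holstein 0 h and Angus 0 h, in which the first 3 overlapped with their neighbours and each later neighbour was separate in its animals. For TNF the order was Holstein 2 h, Angus 2 h, Holstein 8 h, Holstein 0 h, Angus 8 h and Angus 0 h, with overlap between all neighbours. For TNFRSF1B both 2 h groups stood apart from each other and from the 4 groups below them, which overlapped in turn. For CFLAR only Holstein at 8 h stood apart from its neighbour.

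The rest of the pathway was followed through 74 further symbols in 6 lists, of which 70 had a row and 64 were tested at both hours. At 2 h, 18 of the 64 rose and 3 fell, where 22% of all rows tested changed in either direction. At 8 h, 14 rose and 4 fell, where 12.8% of all rows changed. These counts include TNFAIP3 at both hours and TNFAIP2 at 2 h, which passed the filter on low counts mainly through their higher samples. The counts of the single lists, each of at most 16 genes, are to be read against the same shares. The median log2 fold change was 0.06 at 2 h and 0.04 at 8 h, beside 0.00 and -0.01 over all rows tested. Between the breeds at 8 h, 10 of the 64 were higher in Holstein and 3 were higher in Angus, where 16.5% of all rows differed. The breed differences named below are all among the 10, that of TNFAIP2 being given as a description.

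Among 12 ubiquitin regulators, 3 rose and 1 fell at 2 h, and 3 rose and none fell at 8 h (all rows, 22% and 12.8%). TNFAIP3 (A20), the deubiquitinase that shuts off NF-κB signalling, went from 0.73 ± 0.25 CPM at 0 h to 31.6 ± 20.4 CPM at 2 h and 10.1 ± 6.87 CPM at 8 h (SD, n = 8). The rise was 5.45 on the log2 scale at 2 h (FDR = 4.03e-31) and 3.79 at 8 h. TNFAIP3 had 0.344 to 1.003 CPM at 0 h and did not pass the filter on low counts between breeds at that hour. It entered the LPS tests through its higher 2 h and 8 h samples, so its rises, included in the counts above, are given as a description. Its partner TNIP1 rose by 1.76 at 2 h and 2.27 at 8 h (FDR = 9.36e-10). At 8 h both were higher in Holstein, by 1.40 (TNFAIP3, FDR = 0.00658) and 1.48 (TNIP1, FDR = 9.67e-05).

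In the list of 14 death-arm genes tested, none was called at 2 h by edgeR's likelihood-ratio test, its quasi-likelihood test or DESeq2, with 3, 2 and 3 genes at an unadjusted P under 0.05. With a block for the animal, edgeR called 6 of the 14 at 2 h, and the share of all rows in that setting is not given here. Without a block, edgeR's likelihood-ratio test called 22% of all rows at 2 h. At 8 h, 4 of the 14 rose and 2 fell, with 12.8% of all rows changed. CASP8 had a value of 0.15 at 2 h (FDR = 0.501). CASP8, the caspase that CFLAR restrains, rose by 0.85 at 8 h (standard error 0.15, FDR = 1.34e-06) in 8 of 8 animals. At 8 h the Holstein cultures had more CASP8, by 0.68 (FDR = 2.25e-05), without overlap of the animals.

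Among 9 other survival genes, 5 rose and none fell at 2 h, and 2 rose and 1 fell at 8 h (all rows, 22% and 12.8%). IER3, an early response gene, rose by 2.69 at 2 h (FDR = 6.18e-18) and 1.24 at 8 h (FDR = 1.07e-10). SOD2, the mitochondrial superoxide dismutase, rose by 2.70 at 8 h (FDR = 4.56e-07) and had a value of 0.75 at 2 h (FDR = 0.0617). The SOD2 levels at 8 h ran from 2.27 to 31.0 CPM between animals.

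Of 16 genes of the receptor complex, 4 rose and 1 fell at 2 h, and 2 rose and 1 fell at 8 h (all rows, 22% and 12.8%). TRAF3, a negative regulator of non-canonical NF-κB signalling, rose by 0.91 at 2 h (FDR = 5.1e-15) and 0.71 at 8 h (FDR = 4.09e-12). TRAF5, a relative of TRAF2, fell by 1.05 at 8 h (FDR = 3.48e-05) in 8 of 8 animals, and its value at 2 h was -0.36 (FDR = 0.318).

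Of 11 ligand and shedding genes, 6 were tested, 3 rose at 2 h and 2 rose at 8 h, with none falling (all rows, 22% and 12.8%). TIMP3, an inhibitor of the TNF-shedding protease ADAM17, rose by 0.83 at 2 h (FDR = 2.09e-06) and 0.63 at 8 h (FDR = 0.00374). RHBDF2, which helps ADAM17 mature, rose by 0.57 at 2 h (FDR = 9.22e-07) and 0.34 at 8 h (FDR = 0.0194). TIMP3 had 619 to 1205 CPM before LPS and 1189 to 1894 CPM at 2 h over the 8 animals.

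In the last list, 7 regulators of TNF mRNA and TNF-induced genes, 3 rose and 1 fell at 2 h and 1 rose at 8 h (all rows, 22% and 12.8%). TNFAIP6, a secreted hyaluronan-binding protein, rose by 1.71 at 2 h (FDR = 3.92e-05) and 0.94 at 8 h (FDR = 0.00307). TNFAIP2 rose by 3.18 at 2 h (standard error 0.78, FDR = 0.00149) and had a value of 1.125 at 8 h (FDR = 0.363). It did not pass the filter on low counts within Angus at either hour or between breeds at 0 h. Its values elsewhere, where it passed mainly through its higher samples, are given as a description, also where the counts include it. At 8 h both TNFAIP2 and TNFAIP6 were higher in Holstein, by 1.82 (TNFAIP2, FDR = 0.000579) and 1.05 (TNFAIP6, FDR = 0.00213).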

How the data were processed

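Poly-A RNA from 24 bovine dermal fibroblast samples was sequenced on an Illumina instrument after TruSeq library preparation, which does not mark the strand. The authors filtered the reads and aligned them to UMD v3.1 with NextGENe 2.3.4, and the submitters' processing notes name CASAVA 1.7. The deposited tables give raw, whole-number read counts per row, a row being a gene from its start to its end or an interval without a symbol. The deposited mean coverage (signal) of each row served only to compute covered bases per count. Exon and untranslated region context and sequences were not used here.

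From the counts, edgeR 4.0.16 (R 4.3.3) was run with TMM scaling, a filter of 1 CPM or more in at least 50% of the samples compared, and the generalized linear model's likelihood-ratio test, adjusted by Benjamini-Hochberg over all rows tested, each comparison on its own samples and without a block. Fold changes are model estimates with their standard errors. Where the filter removed TNF, log2(CPM + 0.1) was compared by two-sided exact permutation tests (scipy 1.17.1), with sign flips within animals for hours and relabelling of animals for breeds. The study's own threshold of an FDR under 0.05 with a fold change of at least 2 and an average CPM above 1 was an alternative, as were the quasi-likelihood test, DESeq2 1.42.0, other scalings, no filter, other pseudocounts, leaving out animals or the 4 libraries, and a block for the animal. The fits were tested on simulated data with known changes. Each sample is a separate animal at that hour. Count intervals cover counting error only.

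Animal numbers in the labels name the same animal at each hour. After removal of group means, samples of 1 animal correlated across rows with a mean r of 0.659 between 0 h and 2 h, 0.619 between 0 h and 8 h and 0.611 between 2 h and 8 h, with a lowest r of 0.431, against -0.218, -0.206 and -0.202 for different animals of a breed. Equal numbers in the 2 breeds name unrelated animals. None of the 36 pairs of samples within a group agreed within sampling noise.

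The members, the pathway lists and the cell type markers were chosen with earlier results of these data known. All members were named, and from each pathway list up to 2 genes with the largest change at 2 h or 8 h (breeds combined) among those with an FDR under 0.05 and the same direction in all 8 animals. A gene that this rule names is not reported here. The 5 genes most like TNF or BIRC3 were taken by Pearson correlation of log2(CPM + 0.1). TNIP3, OTULIN (its row carries the symbol FAM105B), CASP10 and TNFRSF10D had no row under these symbols. The pathway lists get no set test and are described by counts and medians.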

Additional observations from a re-analysis of the deposited data

Results flagged for a closer look

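In groups of 4, a sample was singled out when its gap to the nearest other sample was too large a share of the group's range by Dixon's test at the 95% level. Of 42 groups tested, 5 had such a sample, and chance alone gives about 1 in 20. All 5 were Angus animal 3. They were its TNF level at 0 h (0.043 CPM, from 4 counts where the others had 0), its TNF level at 2 h (1.44 CPM), its TNFRSF1A level at 0 h (110 CPM, against 83.9 to 87.7 in the other Angus animals), its BIRC3 level at 2 h (156 CPM) and its CFLAR level at 2 h (7.43 CPM). The 3 values at 2 h came from the library in which COL1A1 reads seemed to be counted differently, and the 2 values at 0 h did not. At 8 h, also in a library counted like most others, this animal had the highest BIRC3 (46.3 CPM) and CFLAR (8.77 CPM) of the Angus animals.

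The interaction of breed and LPS for BIRC3 at 8 h was 0.94 (log2) with the animal as a replicate block and passed the threshold in that setting (FDR = 0.00122). It did not pass without the block (FDR = 0.752) or with the block under the quasi-likelihood test (FDR = 0.0899).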

How the results depend on the processing

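Of the counts of members called, those at the study's own threshold were 1 at 8 h, 1 from 2 h to 8 h and 1 in Holstein at 8 h, and 1 between breeds at 8 h, since it asks for a larger fold. With the animal as a replicate block, 5 members were called from 2 h to 8 h, also 5 with the quasi-likelihood test, and 1 in the interaction at 8 h. Without the 4 libraries, 4 were called in Angus at 2 h and 4 between breeds at 2 h. There the quasi-likelihood test called 1 and DESeq2 4. TNF is counted among the members here, although its higher Holstein samples alone were enough to pass the filter. Leaving out 1 animal gave 1 to 4 members between breeds at 2 h, 1 to 3 between breeds at 8 h and 0 to 1 in the interaction at 8 h, each highest without Angus animal 3. For the counts with a block, another test or fewer samples, the share of all rows called is not given here. They therefore do not show whether a change in calls concerned the members or all rows alike. Between breeds no block could be fitted, since the numbers name unrelated animals.

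Directions turned only for differences called neither way. Without the 4 libraries, TRAF1 was 0.10 at 2 h combined, 0.071 at 2 h in Holstein and 0.48 in the interaction at 2 h, CFLAR was 0.079 at 2 h in Holstein and -0.043 between breeds at 0 h, and TRAF2 was -0.137 and -0.018 in the interactions at 2 h and 8 h. With total-count scaling, TRAF1 was 0.013 from 2 h to 8 h and 0.095 in the interaction at 2 h, and CFLAR was -0.013 between breeds at 0 h. With LOC100848161 added, CFLAR was 0.27 at 2 h in Holstein. Leaving out 1 animal, CFLAR ran from -0.103 to 0.024 at 2 h in Holstein, TRAF1 from -0.214 to 0.026 and from -0.157 to 0.517 in Angus at 2 h and 8 h and from -0.144 to 0.097 in the interaction at 2 h. TRAF2 ran from -0.203 to 0.059 and from -0.166 to 0.045 between breeds at 2 h and 8 h, and from -0.064 to 0.162 and from -0.097 to 0.182 in the interactions at 2 h and 8 h. TNFRSF1A ran from -0.07 to 0.072 between breeds at 8 h and TNFRSF1B from -0.245 to 0.158 in the interaction at 8 h. The cause was not tested.

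Depth limits TNF, which had 0 to 4 counts in every library at 0 h, and 4 animals per breed limit its exact tests.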

Other observations

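The 5 genes whose log2 level over the 24 samples followed that of TNF most closely, among 13667 rows with a symbol, were RRAD (Pearson r = 0.974), KDM6B (0.973), CYTH1 (0.962), DNAH2 (0.947) and CSRNP1 (0.943). For BIRC3 they were NFKB1 (0.981), CX3CL1 (0.964), ATP8A2 (0.963), LOC100335751 (0.962) and NFKBIA (0.961). NFKB1 encodes an NF-κB subunit and NFKBIA its inhibitor. The 24 points share animals, hours and the LPS response, so these values are descriptive, and neither list shares a gene with the other.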
